A study of Aedes aegypti with 7 samples.

Results

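The microRNAs (miRNAs) of the mosquito fat body were compared between females 48 h post blood meal (48 h PBM) and unfed females 72 h post eclosion (72 h PE, after the adult emerges), to ask how far the profile had returned to the state before the meal. The comparison used the 3 small RNA libraries of 48 h PBM and the 3 of 72 h PE, chosen by their column labels, which are 6 of 15 small RNA libraries and of 21 libraries in all. The other libraries are small RNA from 6, 24 and 36 h PBM, and pull-downs of the miRNA carrier AGO1 (CLIP-seq) from before the meal and from 24 h after it. All came from fat body of adult female Aedes aegypti of the UGAL/Rockefeller strain, kept in the laboratory. The 48 h PBM group were cage mates of the 72 h PE group that were given blood, and the 72 h PE group were females 3 or 4 days old that had not been fed. No unfed females of the later age were analysed here, so blood meal and age cannot be told apart. The design text calls the 3 libraries of each time independent biological replicates, and does not say how many females made up each.

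miRNAs are short RNAs that Argonaute proteins carry to messenger RNAs, whose translation and stability they lower. Each is cut from a hairpin precursor with a 5p and a 3p arm, 1 of which is usually kept far more often than the other. The fat body is the insect counterpart of liver and adipose tissue. After a blood meal it makes yolk proteins for the ovary, and it then ends yolk production and returns to storing nutrients before the next cycle.

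The 48 h PBM libraries held 3810825, 6272960 and 6317980 miRNA reads in replicates 1, 2 and 3, against 4878417, 5292096 and 4756007 in the 72 h PE libraries. These were 23.5% ± 2.07 of all small RNA reads at 48 h PBM and 22.1% ± 1.27 at 72 h PE (SD, n = 3 each; two-sided exact permutation p = 0.3, where 0.1 is the smallest that 3 against 3 allow). The table lists 124 mature miRNAs, of which 114 had enough reads to be tested. The other 10 had at most 11 reads in any of the 15 libraries. Levels are miRNA counts per library after TMM (trimmed mean) scaling, brought to a common total and written CPM, and changes are log2 differences, 48 h PBM minus 72 h PE, from edgeR's quasi-likelihood test with Benjamini-Hochberg adjustment over the 114. Below, "rose" and "fell" are used of miRNAs with an adjusted p under 0.05.

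At 48 h PBM, 90 of the 114 tested miRNAs differed from their level in unfed females by less than 2-fold, a small group of ovary and embryo miRNAs stood many times higher, and members of the miR-9 group and both arms of miR-11 fell by 0.65 to 1.13 on the log2 scale. Of the 114, 28 (24.6%) changed, of which 17 rose (14.9%) and 11 fell (9.65%). An unadjusted p under 0.05 was found for 44 (38.6%). The 3 libraries of 48 h PBM lay wholly above or below the 3 of 72 h PE for 47 of the 114 miRNAs (41.2%), 25 above (21.9%) and 22 below (19.3%). The rises were the larger changes: 13 of the 17 exceeded 2-fold, against 3 of the 11 falls. The 13 include miR-1174 and both arms of miR-1175, which did not pass without 48 h PBM replicate 3. The median log2 change over the 114 was 0.04 and the median size was 0.49.

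A missed threshold does not show a return to the earlier level, so each change was also given a 95% interval. For 47 of the 114 (41.2%) the whole interval lay within 2-fold of the 72 h PE level, and for 13 (11.4%) within 1.5-fold. On leaving out 1 library in turn, the number within 2-fold ranged from 38 to 45. The 86 miRNAs that did not pass the test divided evenly, 43 with an interval within 2-fold and 43 with one that reached further, so for the second group a return was neither shown nor excluded at this precision. The other 4 of the 47 passed the test but by less than 2-fold. For 11 of the rises, the interval lay wholly above 2-fold, and for none of the falls did it lie wholly below. The 47 miRNAs within 2-fold made up 76.2, 72.9 and 54.6% of miRNA reads in 48 h PBM replicates 1, 2 and 3, against 80.3, 72.7 and 72.2% in 72 h PE replicates 1, 2 and 3. The plot of all changes with their intervals shows the long run of small changes and the short run of large rises.

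**Figure D1:**
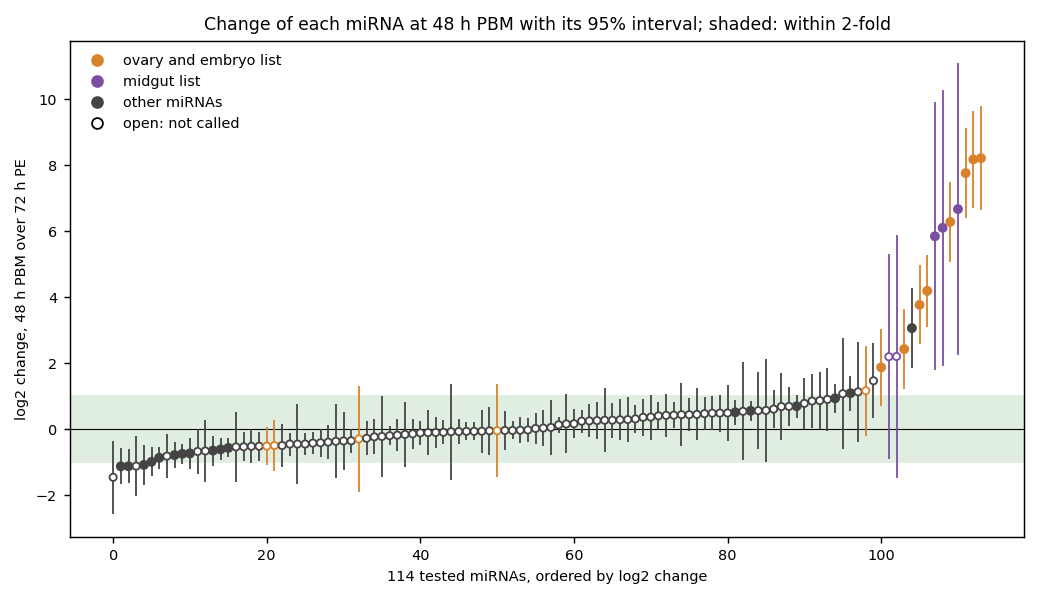
Log2 change of each of the 114 tested miRNAs (48 h PBM over 72 h PE, vertical axis) in order of its size (horizontal axis), with 95% intervals. The shaded band is 2-fold in either direction, filled points passed the test, and the largest rises are nearly all ovary and embryo or midgut miRNAs.

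One library stands apart in content. In 48 h PBM replicate 3, miR-281-5p, an abundant miRNA of the midgut, made up 21.3% of miRNA reads, against 0.958% and 0.456% in 48 h PBM replicates 1 and 2 and 0.394, 3.54 and 0.339% in 72 h PE replicates 1, 2 and 3. Without that library, in the same model, 13 miRNAs rose (11.4%) and 9 fell (7.89%). All 22 of these were among the 28. The 6 that no longer passed were miR-1174, both arms of miR-1175, miR-316, miR-11-5p and miR-125-5p, and none was gained. Other single libraries move the number of calls as well: it was 20 without 72 h PE replicate 2 and 35 without 48 h PBM replicate 1. With only both times in the model and without 48 h PBM replicate 3, 8 rose and 4 fell. The losses then include miR-286a, miR-2944b-3p, both called arms of miR-305, miR-9b and miR-9c-3p. Both arms of miR-8, miR-11-3p, miR-279, miR-308-5p and miR-988-3p were lost there too. Scaling also bears on the balance of directions: on library totals without TMM, 33 rose (28.9%) and 5 fell (4.39%), and the median of all log2 changes moved to 0.34. With limma on the deposited RPM, which are scaled to all small RNA reads, 30 rose (26.3%) and 4 fell (3.51%). The falls of miR-8-3p, miR-11-5p, miR-125-5p, miR-279, miR-308-5p and miR-988-3p passed under neither of these scalings, and that of miR-306-5p did not pass on RPM. None of the 28 changed sign in any alternative setting that was run.

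The largest rises were in miRNAs known from mosquito ovaries and early embryos. Of 16 such miRNAs, 13 were tested, 8 rose and none fell, with a median log2 change of 2.42, against 0.04 over all 114. Of the 8, miR-286a and miR-2944b-5p were under the filter's minimum in every 72 h PE library. They were tested because of their level at later times, so they could hardly be found lower. The median given is the value of miR-286a itself, so nothing is drawn from its distance to 0.04. The same 8 rose without 48 h PBM replicate 3 in the model of 15 libraries. With only both times in the model, miR-286a and miR-2944b-3p did not pass (adjusted p = 0.0595 and 0.0884). miR-309a, which in Aedes aegypti acts in ovarian follicle development, stood at 465, 1691 and 867 CPM in 48 h PBM replicates 1, 2 and 3, against 2.53, 4.14 and 3.7 CPM in 72 h PE replicates 1, 2 and 3. Its lowest 48 h PBM library was more than 100 times its highest 72 h PE library (log2 change 8.17, SE 0.68, adjusted p = 1.52e-06). Its paralog miR-309b-3p stood at 362, 1288 and 670 CPM in 48 h PBM libraries, against 1.38, 3.11 and 3.23 CPM in 72 h PE libraries (log2 change 8.21, SE 0.73, adjusted p = 1.97e-06). The log2 counts of the pair correlated at r = 0.999 across the 15 small RNA libraries, so reads may have been shared between them and they are not separate evidence.

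miR-286 and miR-2944 are made from the same cluster of precursors as miR-309, which in insects is active in early embryos. miR-286b stood at 534, 1679 and 1088 CPM in 48 h PBM libraries, against 11.3, 16.8 and 14.3 CPM in 72 h PE libraries (log2 change 6.28, SE 0.57, adjusted p = 1.97e-06). miR-2944b-5p stood at 83.3, 204 and 115 CPM in 48 h PBM libraries, against 0.92, 0.621 and 0.231 CPM in 72 h PE libraries (log2 change 7.76, SE 0.63, adjusted p = 1.52e-06). The groups were far apart for both, but the 72 h PE level of miR-2944b-5p rests on 4, 3 and 1 reads, so the size of its fold is poorly fixed. The scarcer miR-286a (log2 change 2.42, SE 0.56, adjusted p = 0.00557) and miR-2944b-3p (log2 change 1.87, SE 0.53, adjusted p = 0.0212) rose as well. The rise of miR-2944b-3p did not pass without 48 h PBM replicate 2, 72 h PE replicate 2 or 72 h PE replicate 3. In all, 6 of the 7 tested arms of the miR-309 cluster rose, against 14.9% of all 114 miRNAs. The count includes miR-286a and miR-2944b-5p, tested only because of their level at later times. It also includes both miR-309a and miR-309b-3p, which are not separate evidence, so no excess is drawn from it. The exception was miR-2944a-5p, at 1.87 CPM at 48 h PBM and 2.24 CPM at 72 h PE on average.

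miR-2941 and miR-2946, a further pair of mosquito miRNAs seen in ovaries and embryos, rose as well, above a higher base level. miR-2941 stood at 3884, 9497 and 5603 CPM in 48 h PBM libraries, against 346, 436 and 258 CPM in 72 h PE libraries (log2 change 4.19, SE 0.51, adjusted p = 4.43e-05). miR-2946 stood at 496, 1446 and 837 CPM in 48 h PBM libraries, against 69, 80.5 and 54.8 CPM in 72 h PE libraries (log2 change 3.77, SE 0.55, adjusted p = 0.000281). For all 6 of these abundant members, replicate 2 was the highest and replicate 1 the lowest of the 48 h PBM libraries, and no library of either group reached the range of the other.

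Not every ovary miRNA behaved this way. miR-989, which in adult female mosquitoes is found mainly in the ovary, stood at 220, 1283 and 1129 CPM in 48 h PBM libraries, against 472, 1009 and 1242 CPM in 72 h PE libraries. The ranges overlapped throughout (log2 change -0.05, 95% interval -1.46 to 1.36), and this interval is too wide to place it within 2-fold. miR-2945-3p averaged 721 ± 171 CPM at 48 h PBM and 1031 ± 128 CPM at 72 h PE (SD, n = 3 each; adjusted p = 0.153). With a replicate block it passed as lower (adjusted p = 0.0264). The remaining 2 uncalled members, miR-2942 and miR-2945-5p, averaged under 10 CPM at both times.

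Summed over the 16, ovary and embryo miRNAs took 0.775, 2.08 and 1.15% of miRNA reads in 48 h PBM libraries, against 0.185, 0.238 and 0.227% in 72 h PE libraries. The list had reads in every library of both times, with 1 of the 16, miR-309b-5p, at 0 throughout. The part of ovary tissue in these rises was not tested, and fewer cells of a type and less RNA per cell cannot be told apart in such bulk samples. The plot of summed marker shares sets them beside the midgut, muscle and neural lists.

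Midgut miRNAs behaved differently from library to library. miR-1174 and miR-1175 are gut miRNAs, and miR-1174 is needed in Aedes aegypti for normal sugar and blood intake. miR-1174 stood at 57.9, 7.66 and 1309 CPM in 48 h PBM libraries, against 12, 2.28 and 5.78 CPM in 72 h PE libraries (log2 change 6.10, SE 1.91, adjusted p = 0.0369). miR-1175-5p stood at 17.2, 2.46 and 283 CPM in 48 h PBM libraries, against 0.92, 0.828 and 1.16 CPM in 72 h PE libraries (log2 change 6.67, SE 2.02, adjusted p = 0.0317). miR-1175-3p stood at 18.8, 1.64 and 370 CPM in 48 h PBM libraries, against 1.61, 1.66 and 3.47 CPM in 72 h PE libraries (log2 change 5.84, SE 1.85, adjusted p = 0.0369). Replicate 3 was the highest by a wide margin each time, and replicate 2 was near the 72 h PE libraries. Without replicate 3 the log2 changes were 2.29, 3.28 and 2.15, with adjusted p of 0.261, 0.18 and 0.297. None of the 3 passed without any 1 of the 72 h PE libraries either.

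miR-281-5p itself stood at 8589, 3910.1 and 201971 CPM in 48 h PBM libraries, against 4418, 38738 and 3730.3 CPM in 72 h PE libraries. One library of each group, 48 h PBM replicate 3 and 72 h PE replicate 2, was far above its companions. The log2 change was 2.19 (adjusted p = 0.28) with all libraries and -1.32 (adjusted p = 0.447) without 48 h PBM replicate 3. All 5 midgut list members had reads in every library, and together they took 0.971, 0.459 and 21.6% of miRNA reads in 48 h PBM libraries, against 0.396, 3.55 and 0.341% in 72 h PE libraries. Their part in the other changes was not tested beyond leaving the library out. At 48 h PBM, ovary and embryo miRNAs took less of replicate 3 than of replicate 2, so the pair of lists did not peak in the same library. At 72 h PE, replicate 2 was the highest on both lists, with 0.238% for the ovary and embryo list.

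**Figure D2:**
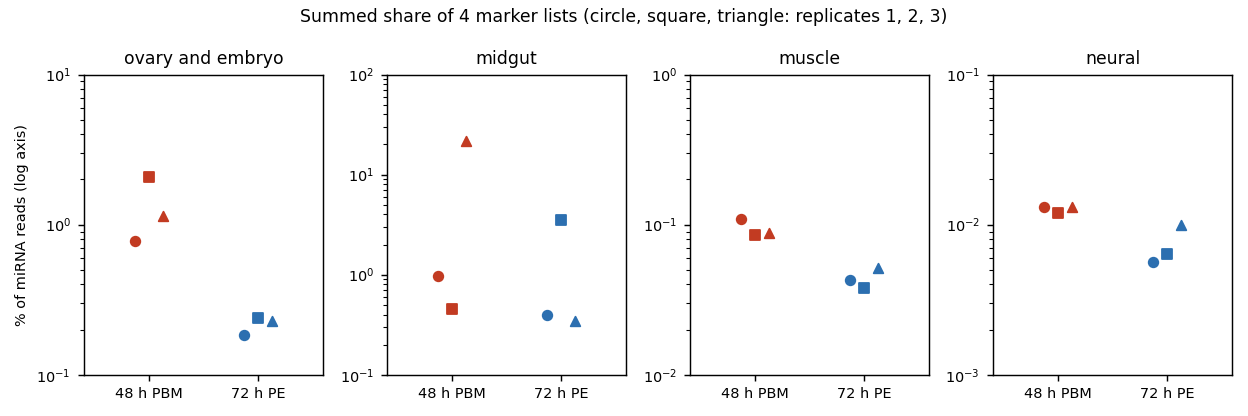
Summed share of miRNA reads (percent, log axis) for the ovary and embryo, midgut, muscle and neural lists in the 48 h PBM and 72 h PE libraries. Circles, squares and triangles are replicates 1, 2 and 3, and 2 libraries stand far above the others of their time on the midgut list (48 h PBM replicate 3 at 21.6% and 72 h PE replicate 2 at 3.55%).

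No muscle or neural miRNA passed the main test, with its own filter and no term for replicate number. In the 15 alternative settings, miR-7 passed as higher in 8, miR-133 in 5, miR-124 in 4 and miR-1 in 3, and miR-137 and miR-210 in none. Some of these kept TMM scaling and all libraries. With a filter of at least 10 CPM, miR-7 and miR-124 passed, and with a term for replicate number miR-7, miR-133 and miR-1 did. The muscle pair, miR-1 and miR-133, took 0.109, 0.0849 and 0.0876% of miRNA reads in 48 h PBM libraries, against 0.0426, 0.0379 and 0.0518% in 72 h PE libraries, without overlap. miR-1 averaged 578 ± 57.4 CPM at 48 h PBM and 321 ± 67 CPM at 72 h PE (log2 change 0.85, adjusted p = 0.125), and miR-133 averaged 269 ± 89.3 CPM at 48 h PBM and 167 ± 18.5 CPM at 72 h PE (log2 change 0.69, adjusted p = 0.0823). The 4 neural miRNAs took 0.0119 to 0.0131% at 48 h PBM and 0.00566 to 0.01% at 72 h PE. Of them, miR-7 had the smallest adjusted p (log2 change 1.46, adjusted p = 0.0562). All 6 miRNAs had reads in every library, and the part of muscle or nerve tissue in any change was not tested.

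miR-375 rose outside those lists. It is linked to hormone-secreting and gut cells in other animals, and is blood-meal responsive in Aedes aegypti. It stood at 703, 1119 and 1153 CPM in 48 h PBM libraries, against 145, 59.2 and 153 CPM in 72 h PE libraries, with no overlap. The fold between means was 8.34 (log2 change 3.06, SE 0.56, adjusted p = 0.00162), and the log2 change was 2.94 (adjusted p = 0.00612) without 48 h PBM replicate 3. Its mean level was 119, 70.2, 189, 1144 and 992 CPM at 72 h PE and 6, 24, 36 and 48 h PBM.

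miR-275 and miR-305 had come down from their peak but had not all reached the unfed level. miR-275 is required in Aedes aegypti for blood digestion and egg maturation, and miR-305 lies beside it in the genome. AGO1 CLIP-seq peaks of both precursors lie on the plus strand of the same AaegL3 supercontig, at supercont1.24:486590-486615 and supercont1.24:495600-495626 as the deposited table gives them. miR-275-3p stood at 16225, 13136 and 10856 CPM in 48 h PBM libraries, against 7242, 7712 and 6126 CPM in 72 h PE libraries (log2 change 0.93, SE 0.21, adjusted p = 0.00557). miR-305-3p stood at 222, 262 and 262 CPM in 48 h PBM libraries, against 88.1, 139 and 124 CPM in 72 h PE libraries (log2 change 1.09, SE 0.25, adjusted p = 0.00557). miR-305-5p stood at 3244, 2919 and 2675 CPM in 48 h PBM libraries, against 1945, 2124 and 1955 CPM in 72 h PE libraries (log2 change 0.55, SE 0.14, adjusted p = 0.0105). Each of these was higher in every 48 h PBM library than in any 72 h PE library, and each rose without replicate 3 as well in the model of 15 libraries. With only both times in the model, miR-305-3p and miR-305-5p did not pass without replicate 3 (adjusted p = 0.0511 and 0.0596). The rise of miR-305-5p did not pass without 48 h PBM replicate 1.

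The fourth arm, miR-275-5p, stood at 21.4, 51.6 and 31.4 CPM in 48 h PBM libraries, against 12.4, 43.7 and 30.7 CPM in 72 h PE libraries, with overlap (log2 change 0.27, 95% interval -0.70 to 1.24, adjusted p = 0.682). The courses of the 4 arms can be set side by side. miR-275-5p averaged 28.9, 564, 544, 36.8 and 34.8 CPM at 72 h PE and 6, 24, 36 and 48 h PBM, and had come down by 36 h. miR-275-3p averaged 7027, 14314, 29161, 17486 and 13406 CPM over the same times. miR-305-3p averaged 117, 1092, 1352, 309 and 249 CPM, and miR-305-5p averaged 2008, 3686, 5582, 4285 and 2946 CPM. These 3 were still above 72 h PE at 48 h, as tested above. All 4 arms fell between 24 and 48 h PBM, by 1.12, 3.96, 2.44 and 0.92 on the log2 scale for miR-275-3p, miR-275-5p, miR-305-3p and miR-305-5p (adjusted p of 0.00235, 0.000164, 4.61e-05 and 0.00068). In that comparison 14% of all tested miRNAs fell.

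miR-8, the most abundant miRNA of these libraries, changed in opposite directions on its arms. In Drosophila, fat body miR-8 promotes body growth, and in Aedes aegypti it is needed in the fat body for egg development. miR-8-3p stood at 480154, 426169 and 344976 CPM in 48 h PBM libraries, against 693030, 578936 and 586624 CPM in 72 h PE libraries (log2 change -0.57, SE 0.13, adjusted p = 0.00582). miR-8-5p stood at 19972, 18862 and 17574 CPM in 48 h PBM libraries, against 9941, 11980.2 and 12995 CPM in 72 h PE libraries (log2 change 0.69, SE 0.16, adjusted p = 0.00557). The groups did not overlap on either arm. The fall of miR-8-3p depends on the scaling, since it did not pass on library totals or with limma on RPM. With only both times in the model and without 48 h PBM replicate 3, neither arm passed. The adjusted p from edgeR's test was then 0.119 for miR-8-3p and 0.0599 for miR-8-5p. As a plain share of miRNA reads it was 46.5% ± 9.04 at 48 h PBM and 56.0% ± 5.02 at 72 h PE (SD, n = 3 each; exact permutation p = 0.3), and 51.6% at 48 h PBM without replicate 3.

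The ratio between arms needs no scaling between libraries. Of 26 precursors with enough reads of both arms, 2 (7.69%) changed their ratio in limma's test on log2 ratios. The 5p arm of miR-8 made up 3.99, 4.24 and 4.85% of the reads of both arms in 48 h PBM libraries, against 1.41, 2.03 and 2.17% in 72 h PE libraries (log2 ratio higher by 1.28, SE 0.21, adjusted p = 0.00039). For miR-2944b, the arm with more reads was not the same at both times. Its 3p arm made up 7.33, 9.14 and 8.92% of 382, 1642 and 841 reads in 48 h PBM libraries, against 81, 82.4 and 94.1% of 21, 17 and 17 reads in 72 h PE libraries (log2 ratio -5.92, SE 0.57, adjusted p = 2.14e-06). The 95% Wilson intervals of the 72 h PE shares, which cover counting error only, run from 59% to 99%, far above the 48 h PBM shares.

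The falls were smaller. Of the 11, 4 were among the 8 tested arms of the miR-9 group. Another 3 were among the 10 tested arms of the K-box seed family (miR-2, miR-11, miR-13 and miR-308). The lists were chosen with earlier results of these data known, so no excess is drawn from these counts. In the miR-9 group, 4 of 8 tested arms fell, against 9.65% of all 114 miRNAs, and the median log2 change of the 8 was -0.71. The 4 also fell without 48 h PBM replicate 3 in the model of 15 libraries, but with only both times in the model miR-9b and miR-9c-3p did not pass (adjusted p = 0.0884 and 0.0886). miR-9c, miR-306, miR-79 and miR-9b are made from 1 cluster in insects, and in Drosophila the miR-9 family shapes the nervous system and epithelia. CLIP-seq peaks of mir-306 and mir-9b start 506 bases apart on AaegL3 supercont1.785, and that of mir-9c lies on the same supercontig. miR-9c-5p stood at 3182, 4408 and 3386 CPM in 48 h PBM libraries, against 7511, 8607 and 7901 CPM in 72 h PE libraries (log2 change -1.13, SE 0.25, adjusted p = 0.00557). Its other arm, miR-9c-3p, stood at 143, 274 and 189.9 CPM in 48 h PBM libraries, against 430.4, 542 and 355 CPM in 72 h PE libraries (log2 change -1.13, SE 0.24, adjusted p = 0.00457). Each 48 h PBM library was below each 72 h PE library for both arms, and miR-9c-5p was the 1 fall that passed in every alternative setting.

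miR-9b stood at 302, 519 and 374 CPM in 48 h PBM libraries, against 793, 919 and 667 CPM in 72 h PE libraries (log2 change -0.99, SE 0.20, adjusted p = 0.00345). miR-306-5p stood at 6042, 6441 and 5872 CPM in 48 h PBM libraries, against 10466, 10461 and 9941 CPM in 72 h PE libraries (log2 change -0.75, SE 0.14, adjusted p = 0.00177). Both fell without any overlap, and miR-306-5p had a spread of only about 300 CPM within each time. miR-9a, a member made elsewhere in the genome of Drosophila, averaged 1409 ± 362 CPM at 48 h PBM and 1443 ± 135 CPM at 72 h PE, with an interval within 2-fold (log2 change -0.03, -0.43 to 0.36). The other 3, miR-306-3p and both arms of miR-79, averaged under 50 CPM at both times and did not pass in the main test. In some alternatives miR-306-3p and miR-79-3p passed as lower.

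miR-11 and miR-308 carry the K-box seed, which they share with miR-2 and miR-13, and in Drosophila several of this family restrain pro-apoptotic genes. miR-11-3p stood at 15643, 24559 and 20364 CPM in 48 h PBM libraries, against 38267, 38273 and 34074 CPM in 72 h PE libraries (log2 change -0.87, SE 0.16, adjusted p = 0.00162). Each 48 h PBM library was below each 72 h PE library. miR-11-5p fell as well (log2 change -0.65, SE 0.21, adjusted p = 0.0369), but did not pass without 48 h PBM replicate 3 or without any 1 of the 72 h PE libraries. miR-308-5p fell too (log2 change -0.62, SE 0.15, adjusted p = 0.00928). Of the 10 tested arms with this family's names, 3 fell, 7 did not pass, and 6 had an interval within 2-fold, against 9.65% that fell and 41.2% within 2-fold over all 114. The seed of the family lies on the 3p arms, so of the 3 that fell miR-11-3p carries it. miR-308-3p missed the threshold (log2 change -0.82, adjusted p = 0.0643), but passed as lower in some alternatives, among them DESeq2 and a replicate block. The miR-2 members were among the closest of all to the unfed level: miR-2a-3p stood at 2629, 2816 and 2353 CPM in 48 h PBM libraries, against 2665, 2642 and 2716 CPM in 72 h PE libraries (log2 change -0.04, 95% interval -0.31 to 0.23). miR-2b and miR-2c had the same change and interval (-0.07, -0.34 to 0.20), but their counts differed by at most 0.493% in any of the 15 libraries, so the same reads may have been counted for both and they are not separate evidence.

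Among the other falls, miR-988-3p stood at 266, 346 and 167 CPM in 48 h PBM libraries, against 634, 643 and 377 CPM in 72 h PE libraries (log2 change -1.09, SE 0.28, adjusted p = 0.0105), and did not pass without 72 h PE replicate 2. miR-279, known in Drosophila from neuron specification and the JAK/STAT pathway, stood at 4442, 5028 and 3632 CPM in 48 h PBM libraries, against 8561, 7785 and 6282 CPM in 72 h PE libraries (log2 change -0.79, SE 0.18, adjusted p = 0.00557). The related miR-996 averaged 2104 ± 296 CPM at 48 h PBM and 2884 ± 149 CPM at 72 h PE and missed the threshold (adjusted p = 0.0524). In some alternatives, among them DESeq2 and a replicate block, miR-996 passed as lower. Of the let-7 complex, whose miRNAs time development under ecdysone, miR-125-5p stood at 1681, 1549 and 1762 CPM in 48 h PBM libraries, against 2252, 3099.8 and 2969 CPM in 72 h PE libraries (log2 change -0.74, SE 0.22, adjusted p = 0.0274). It did not pass without 48 h PBM replicate 3, 72 h PE replicate 2 or 72 h PE replicate 3. miR-100 had a larger change but a wider spread (log2 change -1.12, adjusted p = 0.0645), and let-7 had a log2 change of -0.40 (adjusted p = 0.24). Among the alternatives, miR-100 passed as lower with DESeq2, without a filter and without 72 h PE replicate 1, and let-7 with a replicate block. The last of the rises, miR-316, stood at 669, 569.8 and 679.5 CPM in 48 h PBM libraries, against 467, 414 and 468 CPM in 72 h PE libraries (log2 change 0.51, SE 0.17, adjusted p = 0.0478). This call was lost on leaving out any 1 of the 6 libraries but 48 h PBM replicate 2.

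**Figure D3:**
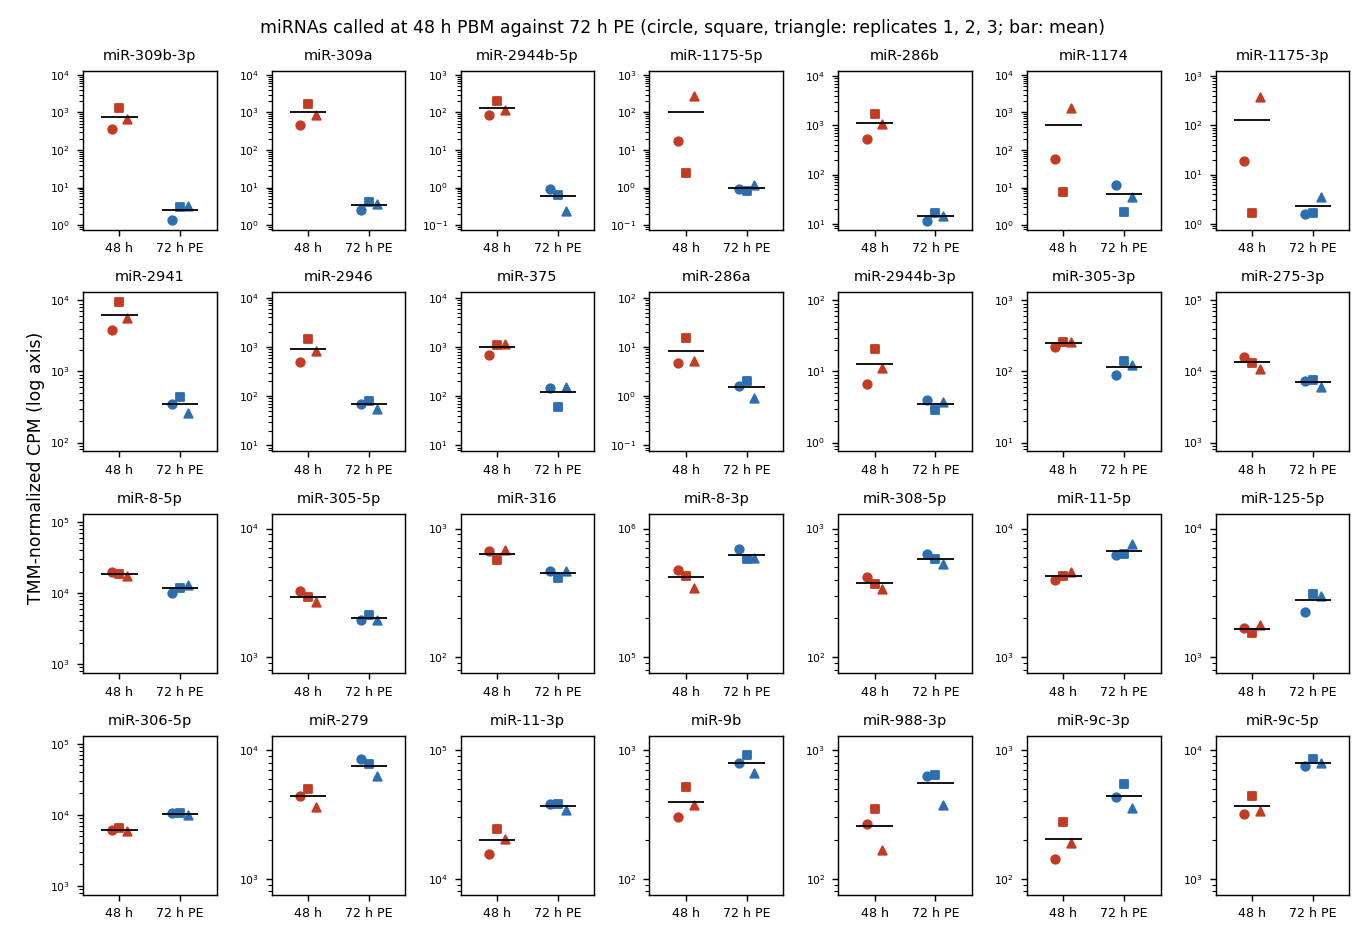
Level of each of the 28 changed miRNAs (TMM-normalized CPM, log axis) in the 48 h PBM and 72 h PE libraries, ordered by log2 change, with circles, squares and triangles for replicates 1, 2 and 3 and bars for means. The groups overlap for miR-1174 and miR-1175-3p, where 48 h PBM replicate 3 stands far above the other 2 libraries of its time.

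Besides the miR-2 members, the miRNAs whose intervals reached least far from the unfed level were miR-276-3p and miR-278-3p. miR-276, which in Anopheles mosquitoes restrains reproductive investment through amino acid metabolism in the fat body, stood on its 3p arm at 28528, 26093 and 24098 CPM in 48 h PBM libraries, against 22369, 25692 and 23905 CPM in 72 h PE libraries (log2 change 0.13, 95% interval -0.11 to 0.37). miR-278, which in Drosophila affects the response to insulin, stood on its 3p arm at 789, 711 and 632 CPM in 48 h PBM libraries, against 759.6, 675 and 738 CPM in 72 h PE libraries (log2 change -0.03, 95% interval -0.38 to 0.32). The groups overlapped for both. miR-276-3p had averaged 35228 CPM at 24 h and 31317 CPM at 36 h PBM, so its mean at 48 h was closer to 72 h PE than at either time. This nearness depends on the scaling: miR-276-3p passed as higher on library totals (log2 change 0.43, adjusted p = 0.0274) and with limma on RPM (log2 change 0.51, adjusted p = 0.0212). As a plain share of miRNA reads it was 2.92% ± 0.339 at 48 h PBM and 2.17% ± 0.175 at 72 h PE (SD, n = 3 each; exact permutation p = 0.1), without overlap.

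Of the 8 growth and metabolism arms, the miR-8 arms were the 2 that changed in the main test. An interval within 2-fold was found for 6 of the 8, miR-8-3p among them, and not for miR-8-5p or miR-33 (log2 change -0.66, 95% interval -1.61 to 0.28). bantam-3p, a growth-promoting miRNA in Drosophila, averaged 55027 ± 6310 CPM at 48 h PBM and 75290 ± 3683 CPM at 72 h PE, without overlap but just short of the threshold (log2 change -0.45, adjusted p = 0.0514). It passed as lower with DESeq2, without a filter, with the 6 libraries alone and with a replicate block. The same held without 48 h PBM replicate 1 or replicate 2. miR-14 passed as lower without a filter, and miR-33 with a replicate block. miR-14, which acts on fat metabolism and insulin production in Drosophila, averaged 27704 ± 3720.2 CPM at 48 h PBM and 31836 ± 2761 CPM at 72 h PE (log2 change -0.20, 95% interval -0.48 to 0.08). miR-277-3p, which in Drosophila controls breakdown of branched-chain amino acids, averaged 3743 ± 806 CPM at 48 h PBM and 3940 ± 340.3 CPM at 72 h PE (log2 change -0.07, 95% interval -0.45 to 0.30). None of the 5 tested arms of the miR-277 cluster passed the test. The same holds for the 3 tested arms of the miR-12 cluster, 3 of the Hox locus, 6 of mosquito-specific miRNAs, 3 of the miR-92 family, 3 of miR-263, and both arms of miR-276 and of miR-71. This depends on the setting. On library totals and with limma on RPM, miR-34-5p, both arms of miR-12, miR-1889-5p, miR-263a-3p, both arms of miR-276 and miR-71-5p passed as higher. miR-283 passed as higher on library totals, and miR-1891 with limma on RPM. iab-4-5p passed as lower with DESeq2 and with a replicate block. Of the miRNAs with the most reads, miR-184, a Drosophila germline miRNA, averaged 76303 ± 17559 CPM at 48 h PBM and 110937 ± 46503 CPM at 72 h PE, with overlap and an interval beyond 2-fold (log2 change -0.54, -1.60 to 0.52). Its level rose from replicate 1 to replicate 3 in both groups, which the main model does not take into account. The abundant miR-317 averaged 29829 ± 11994 CPM at 48 h PBM and 21926 ± 8097 CPM at 72 h PE, and miR-2940-3p averaged 30691 ± 13270 CPM at 48 h PBM and 25131 ± 6993 CPM at 72 h PE, both with overlap (log2 changes 0.44 and 0.29).

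Over the whole profile, the distance between libraries was taken as the root mean square log2 difference over the 114 miRNAs. The 9 pairs of a 48 h PBM and a 72 h PE library lay 1.88 apart on average (1.58 to 2.25), against 1.21 among 48 h PBM libraries and 0.663 among 72 h PE libraries. The smallest distance between the times thus exceeded every distance within either time, the largest of which was 1.49. The libraries of 6, 24 and 36 h PBM lay 1.70, 1.49 and 1.94 from those of 72 h PE. Their pairs ranged over 1.51 to 1.83, 1.31 to 1.77 and 1.83 to 2.07. Each of these ranges overlapped that of 48 h PBM. Divided by the mean distance within the times, the distances were 2.42, 2.11 and 2.43, and lower at 48 h PBM. By Bray-Curtis dissimilarity this ratio was 1.101 and 1.32 at 6 and 24 h PBM, and higher at 48 h PBM (1.55). The place of 48 h PBM among these times is thus not drawn from these values. Replicates 1, 2 and 3 of 48 h PBM lay 1.62, 1.82 and 2.18 from 72 h PE, and the mean without replicate 3 was 1.72. The 13 ovary and embryo miRNAs made up 74.4% of the squared difference between the mean profiles of the times, and the 5 midgut miRNAs 13.5%. These shares count miR-286a, miR-2944b-5p and miR-1175-5p, tested only because of their level at later times. They also count both miR-309a and miR-309b-3p, which are not separate evidence, and the midgut share includes 48 h PBM replicate 3. No excess is thus drawn from them.

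Without those 2 lists, a choice made after seeing the data, 96 miRNAs remained. Over them 48 h PBM lay 0.791 from 72 h PE (0.626 to 0.925 over 9 pairs), compared with 0.934, 0.971 and 0.879 for 6, 24 and 36 h PBM. The distances within a time averaged 0.600 at 48 h PBM (0.439 to 0.698) and 0.512 at 72 h PE (0.451 to 0.604). Unlike over all tested miRNAs, the smallest distance between the times was thus below the largest within 48 h PBM. The ranges of the 4 times overlapped, so no order among them is drawn from these values.

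**Figure D4:**
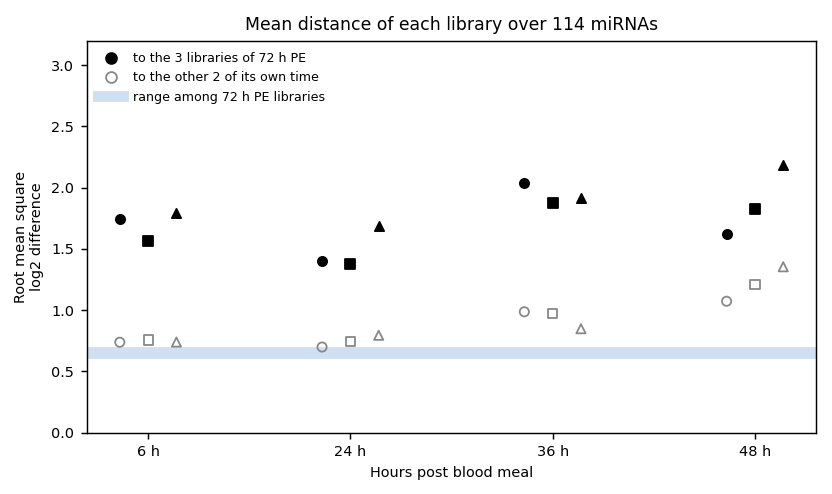
Mean root mean square log2 difference of each library from the 3 libraries of 72 h PE (filled) and from the other 2 of its own time (open), by hours post blood meal; circles, squares and triangles are replicates 1, 2 and 3. The 48 h PBM libraries lie at 1.62, 1.82 and 2.18 from 72 h PE, above the shaded range of 0.611 to 0.690 among 72 h PE libraries.

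The times after the meal show where each change stood within its course. Since all comparisons with 72 h PE share its 3 libraries, only levels are set side by side. miR-309a averaged 3.46, 1.32, 127, 1380.4 and 1008 CPM at 72 h PE and 6, 24, 36 and 48 h PBM. miR-286b averaged 14.1, 2.36, 739, 4282 and 1100.3 CPM over these times, and miR-2941 averaged 347, 5.33, 2606, 4632 and 6328 CPM. Both miR-309a and miR-286b thus had their highest mean at 36 h, and miR-2941 at 48 h. miR-989 averaged 908, 2.26, 2794, 235 and 877 CPM, with wide swings between 72 h PE and 48 h PBM.

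Of the 11 miRNAs that fell, 5 had a lower mean at each later time and 6 did not. Among the 5, miR-11-3p averaged 36871, 34831, 32227, 26648 and 20188 CPM at 72 h PE and 6, 24, 36 and 48 h PBM, and miR-9c-5p averaged 8006, 6886, 4809, 4465 and 3659 CPM. Among the 6, miR-11-5p averaged 6708, 5532, 3726, 4112 and 4269.7 CPM and was lowest at 24 h, and miR-279 averaged 7542, 7596, 8439, 6039 and 4367 CPM and was highest at 24 h. In all, 10 of the 11 had their highest mean of the 5 times at 72 h PE, as did 19 of the 86 miRNAs that did not pass. The 11 were picked as lower at 48 h PBM than at 72 h PE, and the 17 rises as the reverse. The counts of highest times are thus partly built in. Of the 17 that rose, 1 was highest on average at 6 h, 3 were at 24 h, 6 were at 36 h and 7 were at 48 h PBM. Without 48 h PBM replicate 3, miR-1174 and both arms of miR-1175 were highest at 6 h instead, which leaves 4 at 48 h. Between 36 and 48 h PBM, edgeR's quasi-likelihood test called none of the 114 miRNAs, with 24 (21.1%) at an unadjusted p under 0.05.

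**Figure D5:**
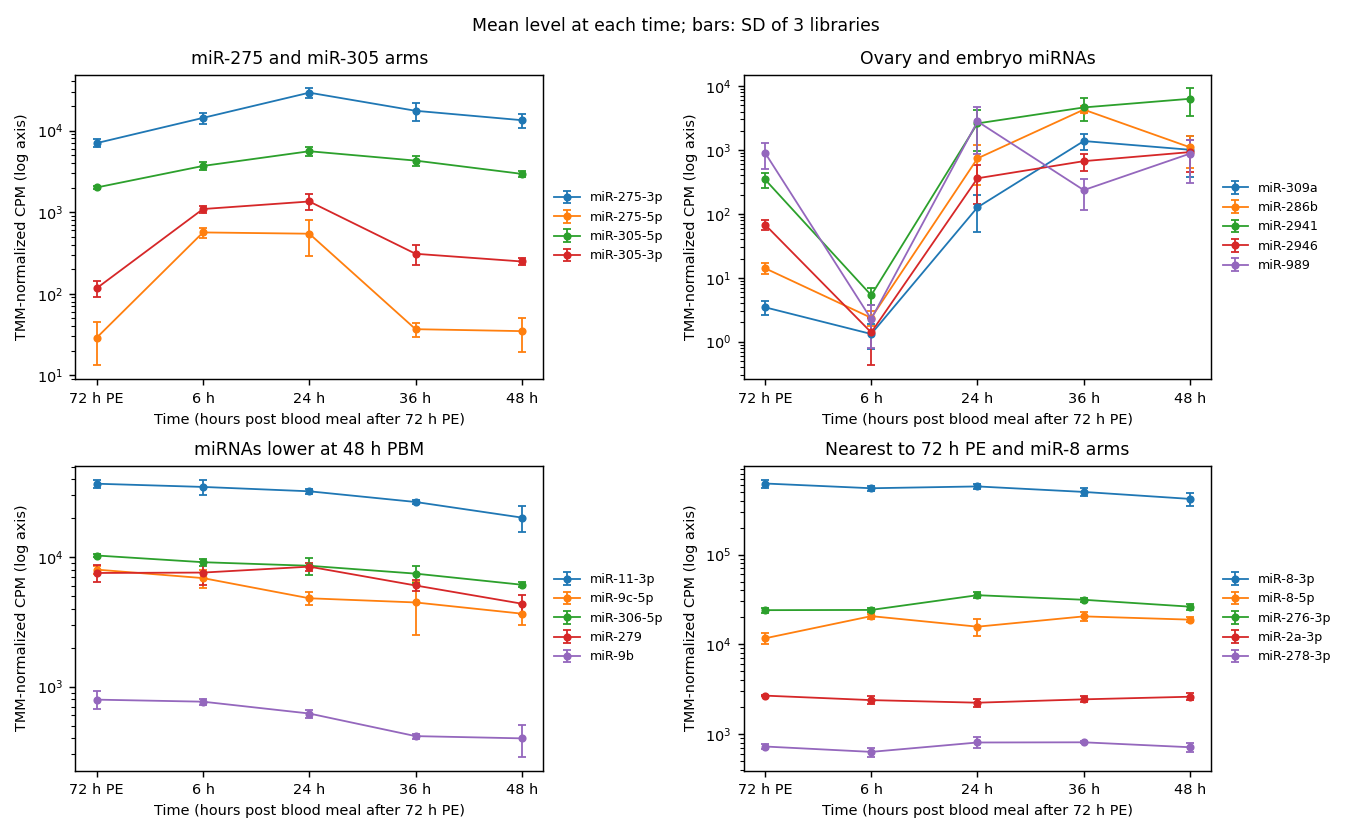
Mean level (TMM-normalized CPM, log axis; bars are the SD of 3 libraries) at 72 h PE and 6, 24, 36 and 48 h PBM for the miR-275 and miR-305 arms, 5 ovary and embryo miRNAs, 5 miRNAs lower at 48 h PBM, and miRNAs nearest to 72 h PE with the miR-8 arms. miR-275-5p is back near its 72 h PE level by 36 h, while miR-309a, miR-286b, miR-2941 and miR-2946 remain far above theirs at 48 h.

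No AGO1 libraries of 48 h PBM were analysed here, so CLIP-seq shows only AGO1-bound reads at these miRNA positions before the meal and at 24 h. Peaks are named by precursor, and their counts were not scaled for library depth here. Peaks at mir-275 had 2191, 1555 and 1661 counts in the 24 h PBM libraries, against 402, 406 and 330.0 in the 72 h PE libraries. Peaks at mir-2946, from the ovary and embryo list, had 7, 7 and 15 counts in the 24 h PBM libraries, against 0, 0 and 3 in the 72 h PE libraries. Those at mir-9b had 107, 74 and 107 counts at 24 h PBM and 95, 100 and 93 at 72 h PE. AGO1-bound reads were thus plentiful at mir-275 and few at mir-2946 before the 48 h time, and those at mir-9b overlapped between the times.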

How the data were processed

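The members and miRNA lists were chosen with earlier results of these data known, from series labels and textbook roles. Per the labels' protocols, RNA was extracted with TRIZOL and libraries were made with the TruSeq small RNA kit. Bowtie2 2.2.3 and TopHat2 2.0.14, R 3.1.2, and bedtools 2.17.0 are listed, with no role, per the submitters' processing notes. The authors deposited raw read counts per library for the 124 mature miRNAs in miRBase release 21, and RPM values scaled to total reads. CLIP-seq peak counts per library, deposited by the authors on AaegL3 supercontigs, were summed per precursor and not tested. It is not stated whether those positions start at 0 or 1. The handling of reads that match several miRNAs is not stated in the sources used here.

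The test on counts used edgeR 4.0.16 (R 4.3.3): TMM scaling, the filterByExpr filter, and robust quasi-likelihood F tests in 1 model over all 15 small RNA libraries, 3 per time, which share 1 estimate of the spread. Tests are two-sided, with Benjamini-Hochberg adjustment at 0.05 over the 114 miRNAs tested. The filter keeps a miRNA that is high at any time, so 3 of those tested (miR-1175-5p, miR-286a and miR-2944b-5p) were under its minimum of 2.10 CPM in every 72 h PE library, and all 3 rose. Intervals at 95% come from the log2 change and its standard error (SE). Arm ratios, with 0.5 added to both counts, were tested with limma 3.58.1. Shares were compared by exact permutation tests, 12 in all, none of which passed adjustment. Group means are means ± SD of CPM. All tests across miRNAs were tested on simulated data. Named are all changed miRNAs (library values for the 8 largest rises and falls, and for others where useful), the 10 most abundant, those nearest to 72 h PE, and list members. Replicate numbers were not taken to pair the libraries, since the labels do not say that they do. Deviations of same-numbered libraries from their group means correlated at 0.53 for replicate 1, -0.03 for replicate 2 and -0.04 for replicate 3. Between libraries of different number the values ran from -0.42 to 0.28. These cover 48 h PBM and 72 h PE only. The level of miR-184 and the miR-2940 arm ratio rose from replicate 1 to 3 at every time, so an effect of replicate number may remain in the main model. With a replicate block, 19 miRNAs rose and 23 fell. Alternatives were other scalings and filters, DESeq2 1.42.0, limma on log2(RPM + 1), the 6 libraries alone, a replicate block and leaving out each library.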

Additional observations from a re-analysis of the deposited data

How the results depend on the processing

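Of the 28 changed miRNAs, 8 rises (miR-309a, miR-309b-3p, miR-286b, miR-2944b-5p, miR-2941, miR-2946, miR-375 and miR-275-3p) and 1 fall (miR-9c-5p) passed in all 15 alternatives, and none of the 28 changed sign in any. A sign change between values that both miss the threshold is not counted. The 28 became 12 (8 higher, 4 lower) with only both times in the model and without 48 h PBM replicate 3, and ranged from 20 to 35 on leaving out 1 library in turn (12 to 17 higher, 8 to 18 lower). Rises numbered 33 on library totals and 30 with limma on RPM, where falls numbered 5 and 4. Falls numbered 18 with DESeq2, 21 without a filter and 23 with the replicate block. The labels do not say that replicate numbers pair the libraries. A bound of 1.5-fold in place of 2-fold left 13 miRNAs within it. The number within 2-fold ranged from 38 to 45 on leaving out 1 library in turn. The distance between the times, over the mean distance within them, was 2.0, and was 2.32 over miRNAs of at least 100 CPM, 3.57 by 1 minus Spearman's correlation, 1.55 by Bray-Curtis dissimilarity, 2.36 without 48 h PBM replicate 3 and 1.42 without the ovary and embryo and midgut lists, chosen after seeing the data. The difference in miR-281-5p share, 6.14 percentage points with all libraries, ranged from -0.716 (without 48 h PBM replicate 3) to 9.69. The cause of these shifts was not tested. Both changed arm ratios passed in every alternative. Depth limits the least abundant miRNAs, such as miR-2944b-5p at 1 to 4 reads in the 72 h PE libraries.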

Other observations

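Of 26 tested miRNAs outside every list, miR-316 rose, miR-988-3p fell and 15 had an interval within 2-fold of the 72 h PE level, with a median log2 change of -0.09. The most negative log2 change of all tested miRNAs was that of miR-998, at 335 ± 136 CPM at 48 h PBM and 924 ± 517 CPM at 72 h PE (SD, n = 3 each), with overlap (log2 change -1.46, adjusted p = 0.0524). miR-87 averaged 232 ± 2.62 CPM at 48 h PBM and 173 ± 16.5 CPM at 72 h PE, without overlap but short of the threshold (log2 change 0.42, adjusted p = 0.105). miR-190 (log2 change -0.11, 95% interval -0.47 to 0.24) and miR-252-5p (-0.14, -0.60 to 0.31), which averaged 3942 ± 874 CPM at 48 h PBM and 4353 ± 703 CPM at 72 h PE, stayed within 2-fold.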
